A study of Mus musculus with 7 samples.

Results

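The C2C12 coding-exon peaks are the 2860 m6A peaks that the authors' C2C12 list places in the category of coding exons, out of 5433 peaks in that list and 10845 in the series. They were chosen by this annotation alone, and no measured value was used. C2C12 is a mouse myoblast line that divides as progenitors and forms myotubes when serum is reduced. The list stands for 2 m6A IP libraries and 1 input library of these cells, and the labels give no separate culture for each IP library. In the genotype field the input is called normal and the IP libraries are called knockout, and the methods mention no METTL3 knockdown for these libraries. The culture notes cover growth in 15% fetal bovine serum and differentiation for 3 days in 2% horse serum, without saying at which stage RNA was taken. The other table of the series comes from muscle of C57BL/6 mice at day 2 after CTX injury, which was made in the tibialis anterior, with 1 IP and 1 input library from METTL3 cKO mice (Pax7CreERT2; METTL3 flox/flox) and 1 of each from control mice (Pax7CreERT2; METTL3 wt/wt), all given tamoxifen. In these mice the deletion is limited to cells in which the Pax7 promoter drives the Cre, while the RNA is from muscle.

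N6-methyladenosine (m6A) is set on mRNA by a complex in which METTL3 is the catalytic subunit. It is found mainly at GGAC and related sequences, in long internal exons and around the stop codon, and reader proteins such as YTHDF1 bind it and act on translation and decay. In m6A MeRIP-Seq, RNA fragments captured by an antibody are sequenced beside the input, and stretches that are enriched over the input become peaks. A peak in a coding exon therefore marks a stretch of about the size of the fragments, within which the methylated base is not resolved. No sequence is printed for the peaks, because the positions are not on the GRCm38 build and no genome of their own build was used here.

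The category was first set against the other columns of the list. All 2860 coding-exon peaks are listed on protein-coding RefSeq transcripts (NM accessions), whereas 188 of the other peaks are on noncoding ones. Of the 2288 genes with a coding-exon peak, 2272 were found in the RefSeq annotation of GRCm38 by their transcript, and all 2272 are protein-coding there. The list uses 1 transcript per gene, 3970 transcripts for 3970 genes, so the category holds for that transcript and could differ for another isoform. At the edge of the category, 31 coding-exon peaks reach upstream of the transcription start site (TSS), which shows that a peak was placed by part of its length and not by all of it. Only 280 of 2836 coding-exon peaks (9.87%) lie inside the GRCm38 span of their gene, against 94.4% of muscle peaks. The C2C12 positions are thus given as they stand in the list, on a build that it does not name. The list holds no count, enrichment or p-value and no column for each IP library, so depth is unknown, replicate spread cannot be given, and every comparison below is a description without a test.

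Coding exons held more peaks than any other category of the list, 52.6% of all peaks (95% Wilson interval 51.3 to 54.0). The 3′UTR held 25.9% (24.7 to 27.0), introns 12.4% and the 5′UTR 6.29%. These intervals, like those that follow, cover counting error only. Coding-exon peaks covered 1053626 bp, which was 55.4% of the length of all peaks. Their median length, as end minus start, was 304 bp, with quartiles of 241 and 426 bp. The median was 290 bp for 3′UTR peaks, 232 bp for intron peaks and 239 bp for 5′UTR peaks. The shortest length in every category was 199 bp. Peaks of 200 bp or less made up 4.65% of the coding-exon peaks, 4.70% of the 3′UTR peaks and 14.4% of the intron peaks. At the other end, 489 coding-exon peaks (17.1%) were 500 bp or longer, against 12.8% of 3′UTR peaks and 9.78% of intron peaks. The longest 286 coding-exon peaks held 22.6% of the length covered by the category.

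**Figure D1:**
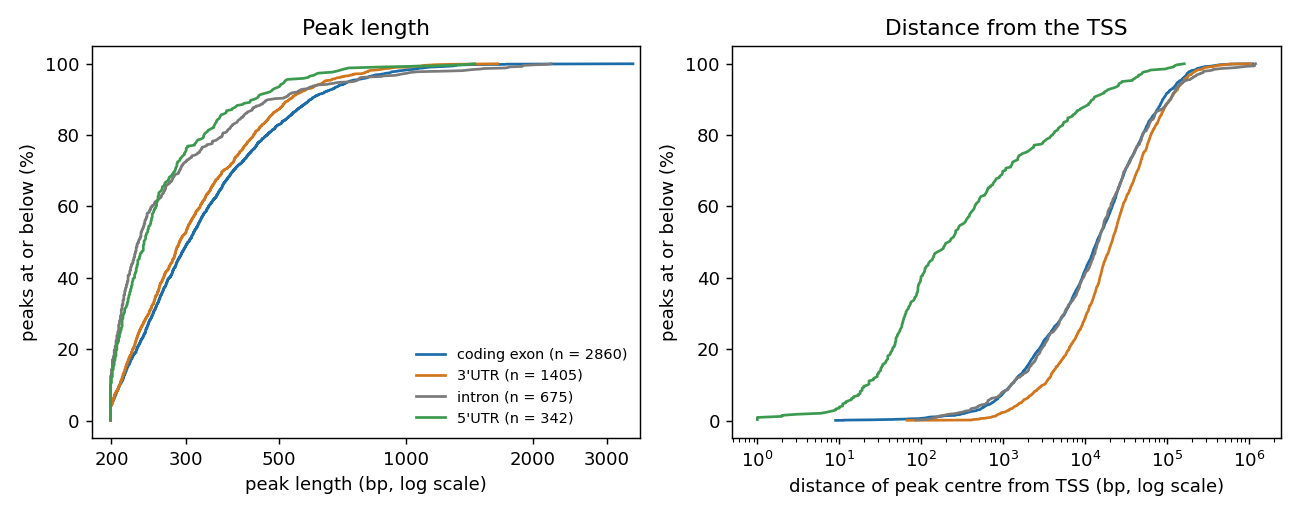
Cumulative share of C2C12 peaks (%) by peak length (left, bp on a log scale) and by distance of the peak centre from the TSS (right, bp on a log scale), 1 line per category of the list. Coding-exon peaks reach the highest length, 3459 bp, and their distances, with a median of 13819 bp, lie close to those of intron peaks and left of those of 3′UTR peaks.

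Long coding-exon peaks fell in genes of the cytoskeleton, lipid droplets, the centromere and transcription. Plec, which encodes the cytolinker plectin, had the longest, 3459 bp on chromosome 15 from 76005274 to 76008733. A second Plec peak of 2392 bp lay beside it, from 76002754 to 76005146. Its 5 coding-exon peaks covered 8771 bp in all, the most of any gene. Plin4, a lipid droplet protein, had peaks of 1733 and 1121 bp. Cenpb, a centromere protein, had 1 peak of 1722 bp and Junb, an AP-1 transcription factor, 1 of 1715 bp. By summed length, Plec was followed by Nes, the intermediate filament protein nestin (3029 bp in 3 peaks), Plin4 (2854 bp), Tnks1bp1 (2818 bp in 5 peaks) and Bcl9l, a cofactor of beta-catenin (2485 bp in 3 peaks). At the low end, the zinc finger gene Adnp2 had a peak at the shortest length, 199 bp, beside others of 575 and 407 bp.

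Most genes had a single coding-exon peak. Of the 2288 genes, 1848 (80.8%) had 1, 348 had 2, 68 had 3 and 24 had 4 to 6. The 440 genes with at least 2 made up 19.2% (17.7 to 20.9) of the genes. The same share was 7.32% (6.02 to 8.87) for 3′UTR peaks among the 1298 genes that had any, and 15.6% for intron peaks. The 92 genes with 3 or more coding-exon peaks were 4.02% of the genes.

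**Figure D2:**
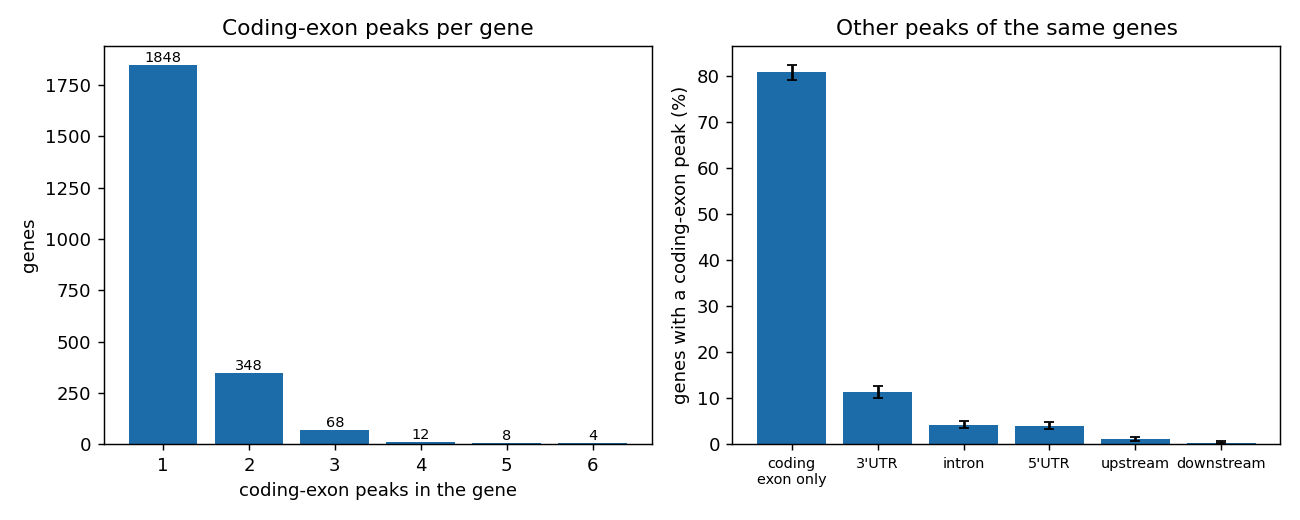
Left, number of genes by their number of coding-exon peaks. Right, share of the 2288 genes with a coding-exon peak (%) that have no other kind of peak or also have a peak of the category named, with 95% Wilson intervals as bars. Single peaks account for 1848 genes, and 80.9% of the genes have peaks in coding exons only.

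Map1a, Kmt2d, Rai1 and Cspg4 had 6 coding-exon peaks each, the highest number. Map1a encodes a microtubule-associated protein. Its peaks were centred between 12146 and 17286 bp from the TSS, with lengths of 203 to 833 bp. Kmt2d is a histone H3K4 methyltransferase, and its peaks spread further, from 7670 to 31468 bp from the TSS. The 6 peaks of Rai1, a transcriptional regulator of the circadian clock, lay between 80543 and 85313 bp from the TSS. Cspg4, the proteoglycan NG2, had 2 clusters of 3, one at 21124 to 22779 bp and one at 32342 to 33766 bp. Of the genes with 5 peaks, Spen, Zfp646, Ahdc1 and Wdr81 stood with Plec and Tnks1bp1 among the first 10. The 5 peaks of Wdr81, a WD-repeat protein of endosomes, included 4 centred between 558 and 3500 bp from the TSS.

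Neighbouring peaks of a gene were often close. Among the 572 gaps between neighbouring coding-exon peaks of a gene, the median was 625.5 bp, with quartiles of 216 and 4480 bp. Of these gaps, 128 (22.4%) were under 200 bp and 336 (58.7%) under 1000 bp. The smallest was 77 bp, so no closer peaks are listed apart. The gaps are genomic and include introns. Ythdf1 shows the close pattern, with peaks of 259, 246 and 430 bp centred at 10003, 9641 and 9189 bp from the TSS. Maml2 shows the wide one, with peaks at 334 and 86324 bp.

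**Figure D3:**
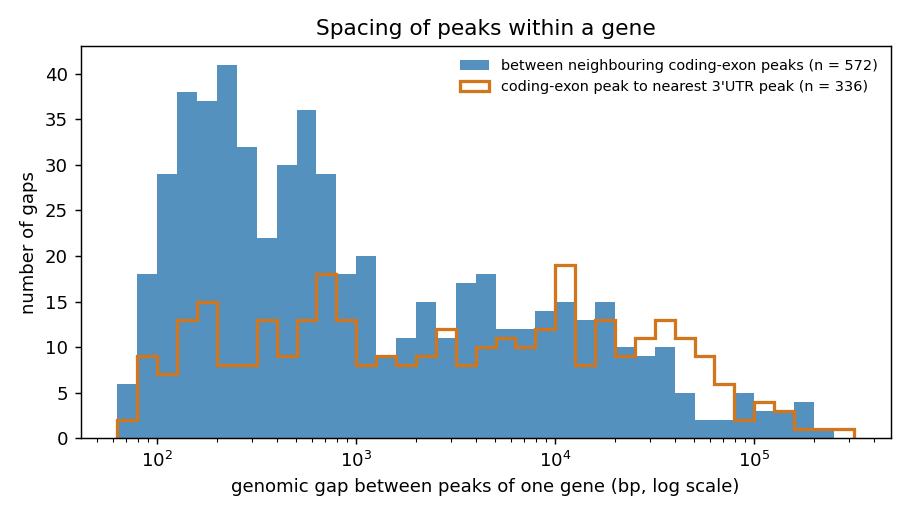
Number of gaps by size (bp, log scale) between neighbouring coding-exon peaks of a gene (filled, n = 572) and between a coding-exon peak and the nearest 3′UTR peak of its gene (line, n = 336). The median gap is 625.5 bp between coding-exon peaks and 2744.5 bp to the 3′UTR peak.

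Most of these genes had no peak elsewhere in the transcript. A 3′UTR peak was listed for 258 of them (11.3%), an intron peak for 97 and a 5′UTR peak for 92, and 1850 (80.9%) had coding-exon peaks only. Across the 21900 protein-coding genes of the annotation, expressed or not, 2271 had a coding-exon peak, and 258 of these also had a 3′UTR peak. A 3′UTR peak without a coding-exon peak was listed for 1004. Whether the 2 kinds of peak share genes more or less often than at random was not tested. In the 258 genes, 336 coding-exon peaks lay at a median of 2744.5 bp from the nearest 3′UTR peak, and 46 of them (13.7%) lay within 200 bp. Notch2, a Notch receptor, had its coding-exon peaks at 132878 and 133337 bp from the TSS and its 3′UTR peaks at 134202, 134952 and 135874 bp, so all stood in 1 stretch. Irs1, the insulin receptor substrate, had coding-exon peaks of 986, 361 and 690 bp at 4080, 2957 and 1569 bp, with a 5′UTR peak at 540 bp and a 3′UTR peak at 53920 bp.

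By position, the centres of coding-exon peaks lay at a median of 13819 bp from the TSS (quartiles 3870 and 39092 bp). The median was 21121 bp for 3′UTR peaks and 218 bp for 5′UTR peaks. Within 1000 bp of the TSS lay 219 coding-exon peaks (7.66%), and 38 (1.33%) lay within 200 bp. The nearest were in Ndufb4, a subunit of mitochondrial complex I, at 9 bp, and at 11 bp in the histone gene Hist1h2bk and in Psmb5, a catalytic subunit of the proteasome. Histone genes have many near-identical copies, so the gene assigned there is uncertain. The farthest was a peak of 935 bp in Auts2 at 1102506 bp, followed by Exoc4, of the exocyst complex, at 722902 bp and Ptprg, a receptor tyrosine phosphatase, at 600532 bp. Beyond 100000 bp lay 234 coding-exon peaks.

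Gene groups were then examined. Across the annotation, 10.4% of the 21900 protein-coding genes had a C2C12 coding-exon peak, and this share includes genes that myoblasts do not express. Of the 3831 protein-coding genes with any C2C12 peak, 59.3% had one in a coding exon. The intervals of 4 lists lay above both values, those of Wnt and Hippo genes, chromatin regulators, ubiquitin ligases and deubiquitinases, and zinc finger genes. Among members with any peak, the share with a coding-exon peak was 90.9% (72.2 to 97.5) for the ubiquitin list, 85.7% (68.5 to 94.3) for Wnt and Hippo, 82.9% (68.7 to 91.5) for chromatin and 80.3% (72.8 to 86.1) for zinc finger genes. Of 46 Wnt and Hippo genes, 24 had a coding-exon peak (52.2%, 38.1 to 65.9), out of 28 with any peak. Fzd1, a Wnt receptor, had 4 that covered 1771 bp, all within 2518 bp of the TSS. The atypical cadherin Fat1 also had 4, Axin1 of the destruction complex had 2, and beta-catenin itself, Ctnnb1, had 1. Of 78 chromatin regulators, 34 had a coding-exon peak (43.6%, 33.1 to 54.6) out of 41 with any peak, and 19 of these had 2 or more. Kmt2d was followed by the histone acetyltransferases Crebbp (4 peaks, 1589 bp) and Ep300 (4 peaks, 1374 bp), the Polycomb-related Asxl1 (4 peaks, 1513 bp) and the H3K36 methyltransferase Nsd1 (4 peaks, 1289 bp). Crebbp and Ep300, which are paralogs, each had 3 peaks near each other and 1 well apart toward the TSS. In Crebbp these were centred at 129188, 128632 and 127751 bp and at 33583 bp, and in Ep300 at 63183, 64052 and 64652 bp and at 14977 bp.

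Of 24 genes of the m6A machinery itself, 12 had a coding-exon peak and 0 had a 3′UTR peak. Of the members with any peak these were 12 of 15, and the interval of this share (54.8 to 93.0%) holds the 59.3% of all genes with a peak. Among the writer subunits, Zc3h13 had 4 coding-exon peaks (966 bp), Rbm15b 3 (1680 bp), Rbm15 3 (1250 bp) and Wtap 2 (815 bp). The subunit Virma, listed under its older name 1110037F02Rik, had 1. Among the readers, Ythdf1 had 3 (935 bp), Ythdf2 had 2 (1054 bp) and Ythdf3 had 1 (526 bp). The demethylase genes Fto and Alkbh5 had 1 each, of 394 and 207 bp. No peak of any category is listed for Mettl3.

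For the Notch pathway, which the study followed, 16 of 40 genes had a coding-exon peak (40.0%, 26.3 to 55.4) out of 21 with any peak (76.2%, 54.9 to 89.4), which likewise holds 59.3%. Among the receptors, Notch2 had 2 covering 529 bp, and Notch1 and Notch3 had 1 each. Among the ligands, Jag2 had 1 of 539 bp and Jag1 had 1 of 261 bp, at 33348 bp from the TSS. Among the coactivators, Maml1 and Maml2 had 2 each and Maml3 had 1. Spen, a corepressor that binds RBPJ, had 5 covering 2008 bp. The effector genes Hes1 and Hes6 had 1 each, of 201 and 377 bp. The transcription factor gene Rbpj had no coding-exon peak and 1 in the 3′UTR, as did Heyl. Notch2, Jag1, Rbpj and Maml1 are genes that the study shows for their peaks in these libraries, so their presence in the list is not independent evidence.

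**Figure D4:**
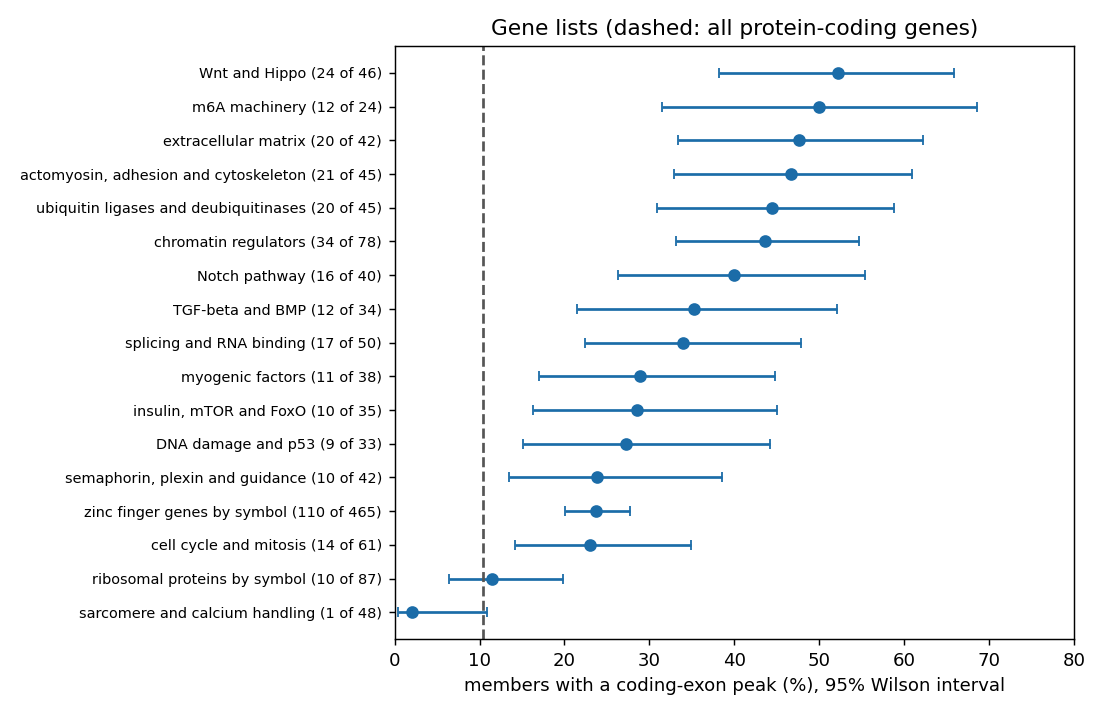
Share of the members of each gene list, cell type markers left out, with at least 1 coding-exon peak in C2C12 (%, points) with 95% Wilson intervals (bars), and the share over all protein-coding genes (dashed line, 10.4%). Among the lists drawn, Wnt and Hippo genes stand highest at 52.2% and sarcomere and calcium handling genes lowest at 2.08%.

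Myogenic transcription factors were divided between coding exons and the 3′UTR. Of 38 genes, 11 had a coding-exon peak (28.9%, 17.0 to 44.8, beside 10.4% of all protein-coding genes). These were 47.8% (29.2 to 67.0) of the 23 with any peak, an interval that holds the 59.3% of all genes with a peak. Another 11 had a 3′UTR peak and none in a coding exon. Over all 3831 protein-coding genes with any peak, 1004 had this pattern. With coding-exon peaks were the homeobox gene Six4 (2 peaks, 1021 bp), the SRF coactivator genes Mrtfa and Mrtfb, listed under the older names Mkl1 (2 peaks, 782 bp) and Mkl2 (509 bp), and the repressors Zeb1 (585 bp) and Zeb2 (684 bp), with 2 peaks each. With 3′UTR peaks alone were Pax7, the satellite cell factor, the Id1, Id2 and Id3 inhibitors of myogenic bHLH factors, and Srf. Myod1 had a single peak, in the 5′UTR, and none is listed for Myog.

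Structural genes were near the share of all genes with a peak. Of 45 genes of actomyosin, adhesion and cytoskeleton, 21 had a coding-exon peak (46.7%, 32.9 to 60.9), which was 61.8% (45.0 to 76.1) of the 34 with any peak, and 13 of them had 2 or more. Beside Map1a, Plec and Nes these included the actin crosslinker Flna with 3 (937 bp), the filament protein Vim with 2 (984 bp) and the nonmuscle myosin Myh9 with 2 (667 bp). Of 42 extracellular matrix genes, 20 had one (47.6%, 33.4 to 62.3), or 66.7% (48.8 to 80.8) of the 30 with any peak. Col6a3, a collagen VI chain, had 5 covering 1626 bp, Fbln2 had 2, and Tnc, tenascin C, had 1 of 1305 bp. Among 48 sarcomere and calcium handling genes, 1 had a coding-exon peak (2.08%, 0.37 to 10.9). This was Jph2, a junctional membrane protein, with 209 bp. The interval holds the 10.4% of all protein-coding genes. Only 4 of the 48 had a peak of any kind. The interval for 1 of these 4 (4.56 to 69.9%) holds the 59.3% of all genes with a peak. With so few genes, a lower share of coding-exon peaks cannot be told from a lack of peaks of any kind. Of 87 ribosomal protein genes, 10 had a coding-exon peak (11.5%, 6.36 to 19.9), which is near the share of all protein-coding genes. Of the 27 with any peak these made up 37.0% (21.5 to 55.8), an interval below the 59.3% of all genes with a peak. Ribosomal protein genes have many processed copies, so these peaks are uncertain. The zinc finger genes named Zfp, Zbtb, Zkscan or Zscan had one in 110 of 465 (23.7%, 20.0 to 27.7), led by Zfp646 with 5 (2001 bp) and Zbtb10 with 4 (1085 bp).

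The markers of the cell type were checked by peaks, since the list holds no expression. Of 9 myoblast markers, 5 had a peak of any kind. Des, the muscle filament desmin, had a coding-exon peak of 510 bp, Pax7 and Cdh15 had 3′UTR peaks, Myod1 had its 5′UTR peak and Chrna1 an intron peak. No peak was listed for any of the 11 myotube markers, the 6 macrophage markers, the 4 endothelial markers or the 2 adipocyte markers. Of the 4 fibroblast markers, Col1a1 and Pdgfra had 1 peak each. A missing peak says only that none was called, as an mRNA can be present without one.

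The muscle table was used as a second readout of the same genes. It lists 5412 peaks that the authors called as differing between genotypes, with 1 fold enrichment per peak for IP over input. The median of this ratio is 12.9. Of the 2271 protein-coding genes with a C2C12 coding-exon peak, 1035 (45.6%, 43.5 to 47.6) had a muscle peak. Across all protein-coding genes of the annotation, expressed or not, the share was 16.9%. The share was 41.3% (38.3 to 44.4) for genes with a 3′UTR peak and no coding-exon peak, and 19.8% (15.9 to 24.4) for genes with an intron peak and neither of these. It was 42.2% (40.0 to 44.5) for genes with 1 coding-exon peak, 58.0% (52.7 to 63.1) for those with 2 and 66.7% (56.4 to 75.5) for those with 3 or more.

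The regions of the peaks were then compared by gene. A muscle peak in the coding sequence (CDS) was listed for 6.37% of all protein-coding genes, expressed or not, and for 588 of the 2271 genes (25.9%, 24.1 to 27.7). Among genes with coding-exon peaks and no 3′UTR peak in C2C12, 26.3% (24.4 to 28.3) had a muscle CDS peak and 17.6% (16.0 to 19.3) a muscle 3′UTR peak. Among genes with a 3′UTR peak and no coding-exon peak, the order was the other way, with 8.76% (7.17 to 10.7) and 30.6% (27.8 to 33.5). The fold enrichment of muscle CDS peaks had a median of 54.0 (45.6 to 67.5, order-statistic interval) over the 713 peaks in genes with a C2C12 coding-exon peak. It was 15.6 (13.4 to 18.9) over the 1013 CDS peaks of other genes. For muscle 3′UTR peaks the medians of the same division of genes were 9.90 and 9.96. A narrower division set genes with coding-exon and no 3′UTR peaks in C2C12 against genes with the reverse. Muscle CDS peaks then had medians of 52.9 in the former and 23.75 in the latter. For muscle 3′UTR peaks the order was the other way, with 9.45 in the former and 30.2 in the latter. GGAC sites were listed in 89.5% (87.0 to 91.5) of the 713 CDS peaks and in 80.9% (78.4 to 83.2) of the 1013.

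**Figure D5:**
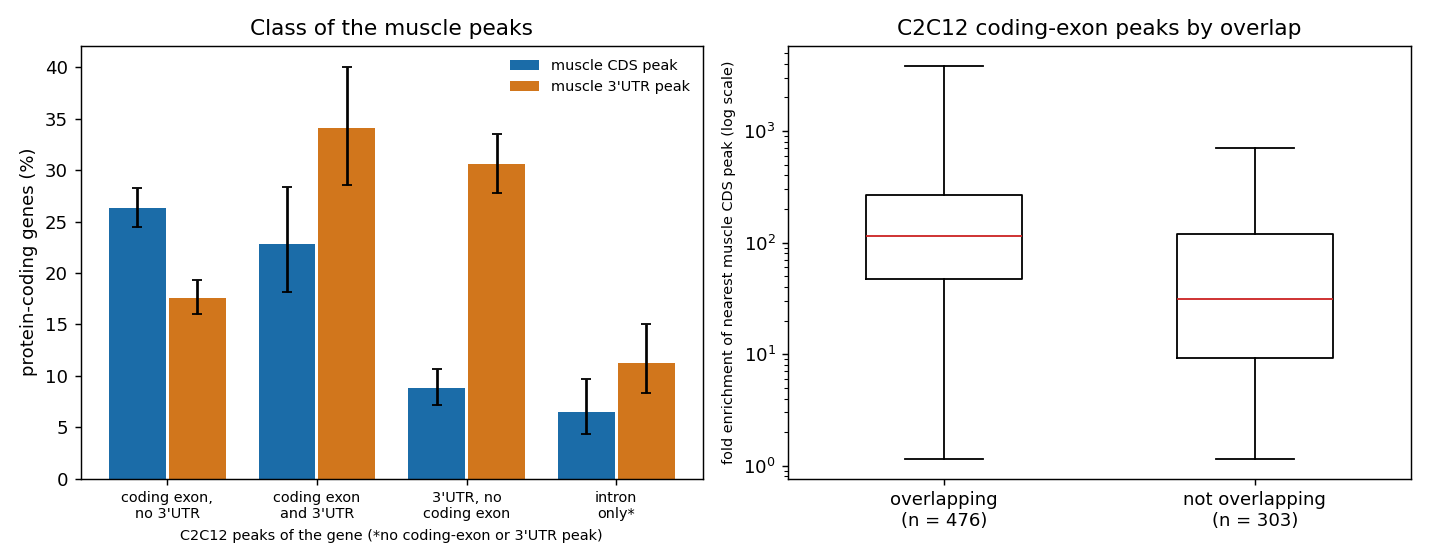
Left, share of protein-coding genes (%, 95% Wilson intervals as bars) with a muscle CDS or muscle 3′UTR peak, for genes divided by their C2C12 peaks. Right, fold enrichment (log scale) of the nearest muscle CDS peak for C2C12 coding-exon peaks that overlap it in distance from the TSS or do not, with the median (red), quartiles (box) and range (whiskers). The medians over C2C12 peaks are 114 and 31.2.

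Since the builds differ, the position of the peaks within genes was compared as distance from the TSS, with the distance the list gives for C2C12 and the GRCm38 start of the gene for muscle. In 551 genes with a muscle CDS peak wholly inside the gene, 779 coding-exon peaks could be compared. Of these, 476 (61.1%, 57.6 to 64.5) overlapped an exon block of a muscle CDS peak. In genes with a single RefSeq transcript, where the start is not in doubt, 75.8% of 182 peaks did. For 3′UTR peaks compared with muscle 3′UTR peaks in the same way, the share was 57.5% (52.8 to 62.1) of 426. The 383 muscle CDS peaks that were overlapped had a median fold enrichment of 102 (87.1 to 115), and the 191 that were nearest but not overlapped had 22 (14.9 to 29.7). For the 3′UTR these medians were 65.9 (47.6 to 82) and 11.1 (9.03 to 14.1), so the difference was seen in both regions. The overlapped peaks were also longer, with a median exonic length of 1021 against 511 bp, and the part of this in the overlap was not tested. By the centre of the C2C12 peak alone, 57.3% lay within a muscle block, and the share was 49.1% (41.7 to 56.6) for C2C12 peaks of up to 241 bp and 70.7% (64.5 to 76.2) for those above the upper quartile of length.

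The muscle table lists the positions of GGAC sites, and these allowed the motif to be read at shared positions. In the 383 overlapped muscle CDS peaks, the stretch shared with a C2C12 coding-exon peak held 1090 sites in 178576 bp, or 6.10 per 1000 bp. The rest of the same peaks held 1516 sites in 307382 bp, or 4.93 per 1000 bp. At least 1 site lay in the shared stretch of 302 of the 383 peaks (78.9%, 74.5 to 82.6). The median distance from the centre of a C2C12 peak to the nearest listed site was 53 bp (quartiles 22 and 144 bp), over the 453 overlapping peaks whose muscle peak has a site. The 383 muscle peaks hold 5.36 sites per 1000 bp as a whole. Neither the 78.9% nor this distance was compared with values for random positions in them.

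By gene, all coding-exon peaks overlapped a muscle CDS peak in 303 of the 551 genes (55.0%, 50.8 to 59.1), some did in 65 and none did in 183 (33.2%, 29.4 to 37.2). Of the genes compared, 135 have a single RefSeq transcript. In the others the C2C12 and muscle distances may start from different TSSs. As the list is on another build, this may also hold for the 135. An overlap may thus be missed or made, which was not tested. Single genes show each case, within this limit. All 6 coding-exon peaks of Map1a fell within 1 muscle CDS peak with a fold enrichment of 440 and 47 GGAC sites. In Kmt2d, 4 of 6 overlapped muscle CDS peaks with fold enrichments of 261, 76.4 and 83.1, and the others lay 191.5 and 150.5 bp outside. In Cspg4 the 3 peaks of the far cluster overlapped a muscle CDS peak with a fold enrichment of 292, and those of the near cluster did not. All 4 coding-exon peaks of Fzd1 fell within a muscle CDS peak with a fold enrichment of 225 and 17 sites. Mocs3, a gene of molybdenum cofactor synthesis, had the muscle CDS peak with the highest fold enrichment, 3860, and its coding-exon peak of 434 bp overlapped it. Zfp503 had 2 coding-exon peaks, of 877 and 443 bp, on a muscle CDS peak with a fold enrichment of 1090. Zfp81 had 1 on a muscle CDS peak with a fold enrichment of 1460 in which 0 GGAC sites are listed. For the Notch genes, 1 of the 2 Maml1 peaks overlapped a muscle CDS peak (fold enrichment 108, 8 sites), and so did the Jag2 peak (96.0, 8 sites). Notch2 and Jag1 have no muscle CDS peak, but each has 1 muscle peak of another class. In Col6a3, 1 of 5 coding-exon peaks overlapped a muscle CDS peak, at a fold enrichment of 3.46, and in Fat1 1 of 4 did, at 98.7. Fat1 has another muscle CDS peak with a fold enrichment of 1560, to which none of its coding-exon peaks was matched. None of the 2 peaks of Zeb1 or the 2 of Zeb2 overlapped a muscle CDS peak, but 1 of Zeb1 lay only 18.5 bp outside one (fold enrichment 175). Plec and Cenpb have muscle CDS peaks with fold enrichments of 29.3 and 135, but these reach 1 and 10 bp past the edge of the annotated gene and were left out of the counts above. With such muscle peaks kept, all 5 coding-exon peaks of Plec and the 1 of Cenpb overlapped them. Rai1, Tnks1bp1 and Bcl9l, among the leading genes in C2C12, have no muscle peak in the table. As that table holds differential peaks only, a gene absent from it may still be methylated in muscle.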

How the data were processed

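The authors sequenced m6A IP and input libraries, called the peaks and deposited 1 list for C2C12 (2 IP libraries, 1 input) and 1 table for muscle (2 genotypes, 1 IP and 1 input each). The submitters' processing notes name TopHat, MACS2 and mm10 without their roles, and the C2C12 positions do not lie on that build. How the IP libraries were combined is not given in the sources used here. The C2C12 list gives positions, annotation and distance to the TSS, and 3 of its columns are empty. For muscle, the authors deposited a fold enrichment of IP over input for each peak, a ratio, and the number of GGAC sites. Its columns of the differential test and its peak p-values were not used. No file has columns for single libraries, so 0 such columns were set aside, and depth could not be computed.

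The calculations used scipy 1.17.1, numpy 2.4.6 and pandas 2.3.3 under Python 3.11.15, with matplotlib 3.10.9 for the plots. Shares have 95% Wilson intervals and medians order-statistic intervals. Genes were matched to RefSeq GRCm38.p6 by transcript (C2C12) or by symbol or a unique older symbol (muscle, 3808 of 3980). Of 1726 muscle CDS peaks, 88 without a matched gene or not wholly inside its span were left out of the comparison by distance. Gaps, merging and overlap were tested on simulated peaks and recovered. The members, the gene lists and the tests were chosen with earlier results of these data known. Genes were named by rule: those the paper names, the first 10 by number and 5 by summed length of coding-exon peaks, the longest, shortest, nearest and farthest peaks, up to 5 members per list, and the 5 highest muscle fold enrichments. A few list members and marker genes outside this rule were named after their values were seen. Some genes that the rule or the lists hold are not reported here. No list test was made.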

Additional observations from a re-analysis of the deposited data

How the results depend on the processing

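Of 24 alternatives over 8 results, 13 changed little, which for a share or a median meant within the interval of the value and for a count within 1.5 times. The share of coding-exon peaks went from 52.6% to 57.6% when genes were counted in place of peaks and to 59.2% among peaks at or above the median length, where genes with 2 or more coding-exon peaks fell from 440 to 178. The latter filter removes the shorter peaks of a gene by construction. The median length was 320 bp with the longest peak per gene. The share of genes with a 3′UTR peak went from 11.3% to 6.46% among the longer peaks and to 5.46% where the 3′UTR peak had to lie within 1000 bp. The share of genes in the muscle table went from 45.6% to 32.9% when muscle peaks below the median fold enrichment were dropped and to 25.9% with CDS peaks. Of the members of all lists, 348 had a coding-exon peak and 105 had 2 or more. The overlap with muscle CDS peaks, whose alternatives were chosen after seeing the data, went from 61.1% to 65.9% with the stronger muscle peaks and to 75.8% with genes of 1 RefSeq transcript, and the cause was not tested. It was 62.2% when muscle peaks reaching 1 bp past the lower edge of the gene were kept and 63.4% when those partly in the gene were kept. Not run, because the list holds no value per library or per peak and no genome of its build was used, were a stricter peak threshold, leaving out each IP library, GGAC or DRACH in the C2C12 peaks, and distance divided by gene length. No paired analysis was possible because the list has no columns for single libraries. Depth is unknown, so weak peaks cannot be told from strong ones.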

Other observations

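Other groups of genes held coding-exon peaks in C2C12 as well, and are given beside 10.4% of all protein-coding genes and 59.3% of those with any peak. Of 45 ubiquitin ligase and deubiquitinase genes, 20 had one (44.4%), among them Usp31, Usp34, Usp36 and Otud7b with 2 each. Of 33 genes of DNA damage and p53, 9 had one (27.3%, and 81.8%, 52.3 to 94.9, of those with any peak), and none of these had 2 or more. Mdm2, the ubiquitin ligase of p53, had the longest of them at 585 bp, and it overlapped a muscle CDS peak with 4 GGAC sites. Of 61 cell cycle genes, 14 had one (23.0%, and 70.0%, 48.1 to 85.5, of those with any peak). Espl1, the protease separase, had 3, and the transcription factor Myc had 2, of 219 and 600 bp. Of 50 splicing and RNA-binding genes, 17 had one (34.0%, and 68.0%, 48.4 to 82.8, of those with any peak), led by Scaf1 with 4 (1555 bp) and the silencing factor Tnrc6c with 3 (2060 bp).

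Of 34 TGF-beta and BMP genes, 12 had a coding-exon peak (35.3%, and 57.1%, 36.5 to 75.5, of those with any peak) and 6 had a 3′UTR peak without one. The activin subunit genes Inhba and Inhbb had 883 bp in 2 peaks and 1323 bp in 1. Of 42 semaphorin, plexin and guidance genes, 10 had a coding-exon peak, 1 each (23.8%, and 45.5%, 26.9 to 65.3, of those with any peak), and 7 had a 3′UTR peak without one. Of 35 insulin, mTOR and FoxO genes, 10 had one (28.6%, and 62.5%, 38.6 to 81.5, of those with any peak), led by Irs1 (2037 bp in 3) and followed by Foxo1 and Igf1r with 2 each.

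Among the chromosomes with any coding-exon peak, the X chromosome had the fewest genes with one for its size, 4.55 per 100 protein-coding genes of the annotation (44 of 966). Chromosome 15 had the most, 13.8 per 100 (107 of 776).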
